A study of Mus musculus with 6 samples.

Results

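Immediate-early genes are transcribed within minutes of a stimulus, without new protein synthesis, and most of them encode transcription factors or short-lived regulators. 10 of them were followed through a time course of TNFα in mouse embryonic fibroblasts (MEFs): the zinc finger factors Egr1, Egr2 and Egr3, the immediate early response genes Ier2, Ier3 and Ier5, the Krüppel-like factors Klf2, Klf4 and Klf6, and the bHLH factor Myc. They were taken by symbol from a RefSeq table of 21837 gene symbols, each by its transcript row with the highest mean over the 8 value columns. 9 of the 10 genes had 1 row, and Myc had 4 rows whose RPKM rounded to the same values.

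The cells were primary wildtype MEFs of the strain C57BL/6x 129, taken from littermate 13.5-day embryos and passaged 4 times. The groups were an untreated culture and cultures given 20 ng/ml of TNFα for 1.5, 6 or 24 hr, with 1 poly(A) RNA-seq library each, and untreated MEFs with 1 H3K4me3 ChIP-seq library and 1 input library. The time course asks which transcripts follow the cytokine, and when. With 1 library per time there was no replicate check of any difference, and no p is given.

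TNFα binds its receptor at the cell surface and activates NF-κB and the MAP kinases, which phosphorylate factors already bound at immediate-early promoters. A CArG box is bound by serum response factor (SRF), a CRE by CREB and ATF factors, a κB site by NF-κB, an EGR site by the Egr proteins themselves and a GC box by Sp and Klf proteins. Egr proteins are held back by the co-repressors Nab1 and Nab2, whose genes are themselves known Egr targets. Myc binds DNA as a dimer with Max and is known for driving ribosome production and growth.

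The 110 bases before the annotated start are shown for 4 genes, in which a CArG box, a CRE, a κB site or a TATA sequence lay there, and capitals mark these letters. Egr1, which also has CArG boxes there, is not shown. They were read 5′ to 3′ on the strand of the gene from the mm9 genome, with starts from the GENCODE vM1 annotation. Egr2 lies on chromosome 10, plus strand, at chr10:67000507-67000616, and the capitals are its CArG box. Ier2 lies at chr8:87186752-87186861, minus strand, with a CRE in capitals. Ier3 lies at chr17:35958519-35958628, plus strand, with a κB site that matches on the opposite strand. Myc lies at chr15:61816836-61816945, plus strand, with 2 GC boxes and a TATA sequence in capitals, all on the opposite strand.
Egr2: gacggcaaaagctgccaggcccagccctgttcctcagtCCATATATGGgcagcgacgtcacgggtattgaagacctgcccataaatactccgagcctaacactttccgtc
Ier2: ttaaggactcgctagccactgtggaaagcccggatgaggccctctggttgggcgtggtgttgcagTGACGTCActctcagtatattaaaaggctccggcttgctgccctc
Ier3: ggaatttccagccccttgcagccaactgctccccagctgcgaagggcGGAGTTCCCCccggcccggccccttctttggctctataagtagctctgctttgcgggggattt
Myc: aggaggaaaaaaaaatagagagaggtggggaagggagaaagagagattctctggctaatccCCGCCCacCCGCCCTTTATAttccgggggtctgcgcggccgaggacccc

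Each motif was searched on both strands of the 250 bases before the start, in the 10 genes and in 19658 coding genes with an annotated start. A CArG box (CC, 6 bases of A or T, GG) was found in Egr1 and Egr2 and in 1.25% of all promoters. Egr1 had 2 of them, at 105 to 96 and at 83 to 74 bases before its start, and Egr2 had 1, at 72 to 63 bases. The CRE (TGACGTCA) was found in Ier2, 45 to 38 bases before the start, and in 2.08% of all promoters. The κB site was found in Ier3, 63 to 54 bases before the start and overlapping a GC box by 2 bases, and in 7.88% of all promoters. An EGR site (GCGTGGGCG or GCGGGGGCG) was found in Klf2 and Klf4, overlapping a GC box in both, and in 4.45% of all promoters. A GC box (GGGCGG) was found in Ier3, Ier5, Klf2, Klf4, Klf6 and Myc, against 44.4% of all promoters. The letters TATAAA were found in Myc alone of the 10 genes, on the strand opposite to the gene, against 11.8% of all promoters. Only these exact letters were searched, so a TATA box of other letters would have been missed in any of the genes. The AP-1 letters TGANTCA were in no window of the 10 genes and in 5.96% of all. The annotated Egr3 transcript begins at its coding sequence, so its window may lie inside the transcript. A match of letters was not tested as a binding site.

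The label of the cells was checked against marker genes. All 8 fibroblast markers were above 1 RPKM (reads per kilobase of transcript, scaled to the mapped reads of the library) in the untreated library, and the 4 endothelial markers summed to 0.0552 RPKM. The 4 epithelial markers summed to 0.508 RPKM, with Epcam listed at 0 in all 4 libraries. Of 6 macrophage markers, 3 were above 1 RPKM in the untreated library (Lyz2, Cd68 and Csf1r), none was at 0, and the sum went from 37.8 RPKM untreated to 186, 35.3 and 90.1 RPKM after 1.5, 6 and 24 hr, a course with the same high and low libraries as several genes below. Most of that sum was Lyz2, at 26.3, 171, 31.4 and 83.9 RPKM. Cd68 was at 7.06, 9.6, 2.36 and 3.64 RPKM and Csf1r at 3.44, 3.35, 1.05 and 1.45 RPKM. Both were lower at 24 hr than untreated. Ptprc was at 0.156, 0.359, 0.101 and 0.194 RPKM and Emr1 at 0.307, 0.864, 0.16 and 0.319 RPKM. Itgam was at 0.48, 0.751, 0.235 and 0.611 RPKM. Ptprc, Emr1 and Itgam were thus below 1 RPKM throughout. Like Lyz2, they were higher at 1.5 and 24 hr than untreated, Emr1 only slightly so at 24 hr. The part of such cells in the results was not tested. In RNA from a whole culture, less RNA per cell and fewer cells of a type cannot be told apart.

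The libraries also differed as a whole. Over 6537 coding genes with an average RPKM above 1, the log2 ratios to untreated MEFs had a median of 0.45, -0.74 and 0.11 for 1.5, 6 and 24 hr. The ratios also followed base composition: at 1.5 hr the median log2 ratio was 1.42 in the 321 genes of lowest GC content and -0.77 in the 321 of highest, and at 24 hr it was 1.01 and -0.99. At 6 hr the same medians were -0.06 and -0.88. The main ratios of the 10 genes are therefore given as deposited and after subtracting the median of all coding genes ("centred"), and counts also after centring within 20 bins of GC content. The R1 and R2 columns of a library held the same number of reads in 37.0% to 43.7% of low rows, against 12.6% to 16.7% for columns of different libraries, and they were not treated as replicates. Over the 40 pairs of columns of the 10 genes they differed by a median of 3.96% of the mean, and by 16.4% at most, in Egr3 at 6 hr. A read in a 1 kb transcript was worth between 0.00935 and 0.0130 RPKM, from which approximate reads and 95% exact (Clopper-Pearson) intervals of the log2 ratio were derived. These intervals cover counting error only.

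**Figure D1:**
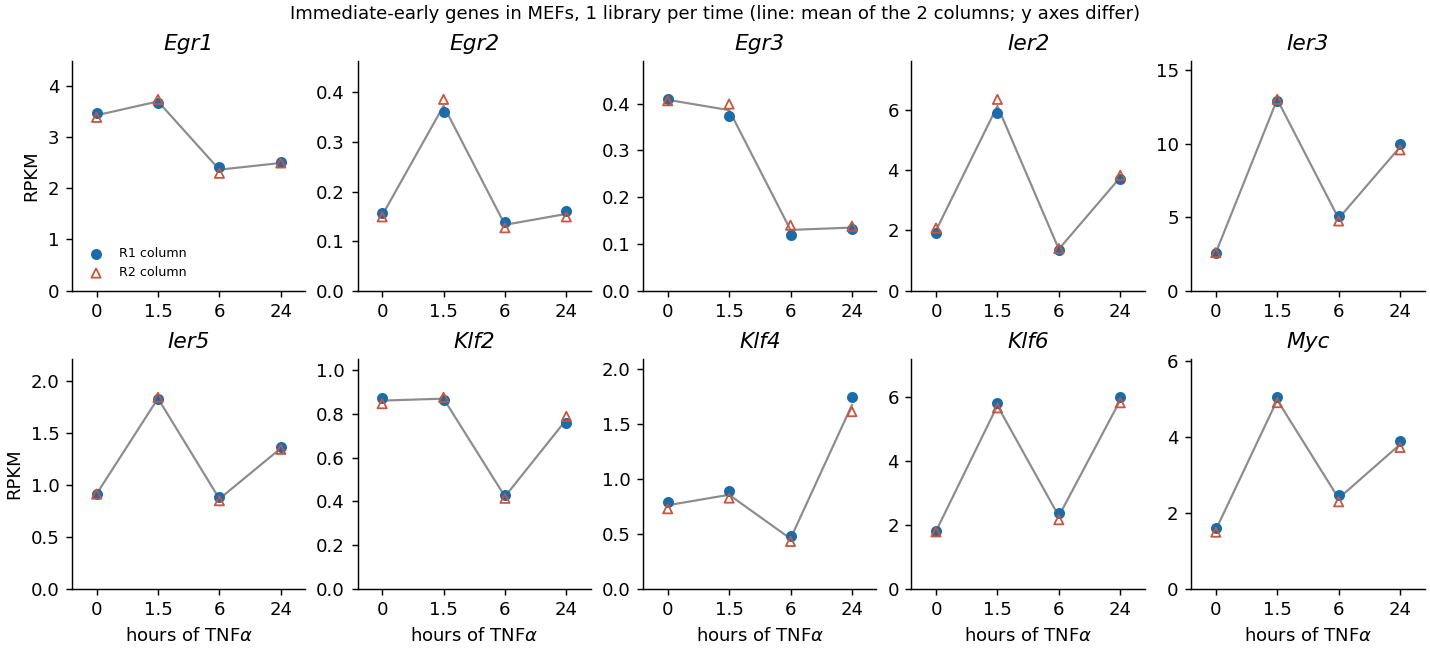
RPKM of each gene (y axis, from 0, scaled per gene) in untreated MEFs and after 1.5, 6 and 24 hr of TNFα (x axis), with filled circles for the R1 column, open triangles for the R2 column and a line through their mean. Ier3 was highest of the 10 genes at every time with TNFα, at 13.0, 4.91 and 9.76 RPKM, and the mean of all 10 genes was lower at 6 hr than at 1.5 and 24 hr, in Egr3 with overlapping columns at 6 and 24 hr.

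Before treatment the levels ran from 3.42 RPKM in Egr1 to 0.152 RPKM in Egr2. The order was Egr1, Ier3, Ier2, Klf6, Myc, Ier5, Klf2, Klf4, Egr3 and Egr2, and the R1 and R2 values of neighbours in that order did not overlap. These columns are not replicates, so their overlap or lack of it does not measure the error of an order. Ier5 at 0.911 RPKM and Klf2 at 0.861 RPKM, for example, rested on about 269 and 143 reads. At 1.5 hr Ier3 led at 13.0 RPKM, followed by Ier2 at 6.13, Klf6 at 5.73, Myc at 4.97 and Egr1 at 3.69. The columns of Klf2 and Klf4 overlapped at 1.5 hr, as did those of Egr3 and Egr2. At 6 hr Ier3 led at 4.91 RPKM, and Myc, Egr1 and Klf6 overlapped in turn between 2.38 and 2.27 RPKM. At 24 hr Ier3 led at 9.76 RPKM, Klf6 followed at 5.90, and Myc at 3.80 overlapped Ier2 at 3.76. Egr1 thus went from the highest of the 10 levels to the fifth at 1.5 hr and at 24 hr. Over the 4 libraries 6 genes had an average RPKM above 1 (Egr1, Ier2, Ier3, Ier5, Klf6 and Myc), and Egr2, Egr3, Klf2 and Klf4 did not. Ier5 was below 1 RPKM in the untreated and 6 hr libraries and passed the filter through its 1.5 and 24 hr values.

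At 1.5 hr, Egr2, Ier2, Ier3, Ier5, Klf6 and Myc exceeded the untreated library at least 2-fold, Ier3 by the most at 5.03-fold, and Egr1, Egr3, Klf2 and Klf4 were within 1.13-fold of it. Among the 6 genes with an average RPKM above 1, 5 were at least 2-fold higher, where 29.9% of all coding genes were, and 0 were lower, against 7.80% of all. Their median log2 ratio was 1.64, that of all 10 genes 1.15 and that of all coding genes 0.45. Ier5, one of the 5 that were higher, passed the filter through its 1.5 and 24 hr values. After centring, 4 of the 6 were at least 2-fold higher (Ier2, Ier3, Klf6 and Myc), against 15.7% of coding genes, and 0 were lower, against 17.4%. Within bins of GC content 3 of the 6 were higher (Ier2, Ier3 and Myc), against 10.8%, and 0 lower, against 10.5%.

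At 6 hr none of the 6 genes was at least 2-fold higher as deposited, against 1.74% of coding genes, and none was lower, against 31.6%. Of the 4 genes of lower level, Egr3 was at 0.318 times and Klf2 at 0.490 times the untreated value. After centring, Ier3, Klf6 and Myc were at least 2-fold higher, 3 of 6 against 7.16% of coding genes, 0 of the 6 were lower, against 3.15%, and Klf2 and Egr3 were no longer 2-fold lower. Within GC bins Ier3 and Myc were higher, 2 of 6 against 4.93%, and 0 lower, against 2.57%. At 24 hr 3 of the 6 genes were at least 2-fold higher, Ier3, Klf6 and Myc, against 16.8% of coding genes, and 0 were lower, against 12.6%. The same 3 were higher after centring, against 14.1%, and 0 lower, against 15.1%. Within GC bins Ier2, Ier3 and Myc were higher, 3 of 6 against 10.3%, and 0 lower, against 9.00%. Klf4, which did not pass the filter, was 2.21-fold higher and Egr3 was at 0.331 times the untreated value. The median log2 ratio of the 6 genes was 0.13 at 6 hr and 1.10 at 24 hr, that of all 10 was -0.37 and 0.74.

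**Figure D2:**
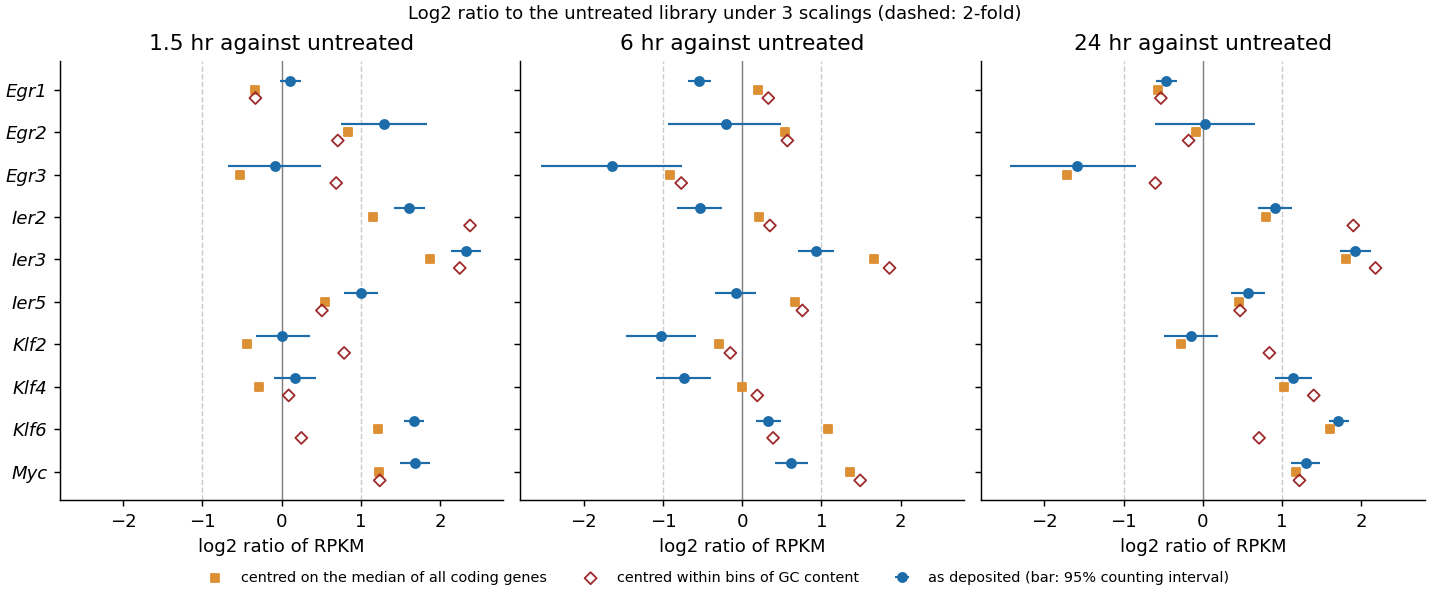
Log2 ratio of RPKM to the untreated library (x axis) for the 10 genes (y axis) at 1.5, 6 and 24 hr, as deposited (circles, with a bar for the 95% counting interval), centred on the median of all coding genes (squares) and centred within bins of GC content (diamonds), with dashed lines at 2-fold. Ier3 stays at 1.67 or above at 6 hr once centred, and Klf6 goes from 1.67 as deposited to 0.25 within GC bins at 1.5 hr.

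Of the Egr genes, Egr2 alone was at least 2-fold higher at any time as deposited, and none was after centring. Egr1, the factor usually induced within the first hour of serum or cytokine treatment, was at 3.42 RPKM untreated and at 3.69, 2.36 and 2.49 RPKM after 1.5, 6 and 24 hr. Its highest and lowest libraries were 1.57-fold apart. Its log2 ratio at 1.5 hr was 0.11, with a counting interval of -0.02 to 0.24, and the centred value was -0.34, so its direction at 1.5 hr depends on the scaling. At 24 hr it was -0.46 (interval -0.59 to -0.32) and -0.57 centred. No library was taken within the first hour.

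Egr2, a factor best known from myelinating Schwann cells, was at 0.152, 0.373, 0.133 and 0.155 RPKM, from about 41, 104, 31 and 49 reads. As deposited, the 1.5 hr library was high and the other 3 were alike. The log2 ratio was 1.29 at 1.5 hr (interval 0.75 to 1.84) and 0.84 centred, which is short of 2-fold. At 6 hr Egr2 was at -0.20 as deposited but at 0.54 centred. Within GC bins it was at 0.71 at 1.5 hr and 0.57 at 6 hr, so the single high library depends on the scaling. Egr3, a factor of neurons, muscle spindles and lymphocytes, was at 0.408, 0.386, 0.130 and 0.135 RPKM, high in the untreated and 1.5 hr libraries and low in the other 2. Its log2 ratio was -1.65 at 6 hr (interval -2.54 to -0.76) and -1.59 at 24 hr (interval -2.44 to -0.85), on about 15 and 20 reads. Centred, these became -0.91 and -1.71, and within GC bins -0.77 and -0.60. Its annotated transcript, which begins at the coding sequence, has a GC content of 62.1%, in the bin of highest GC content. The approximate reads, intervals and GC bin of Egr3 all rest on that transcript.

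Each of the 3 Ier genes was highest at 1.5 hr. Ier2, a nuclear immediate-early protein, was at 2.0 RPKM untreated and at 6.13, 1.38 and 3.76 RPKM after 1.5, 6 and 24 hr. It was high at 1.5 and 24 hr and lowest at 6 hr, a 4.43-fold range. The log2 ratio was 1.61 at 1.5 hr (interval 1.42 to 1.81), 1.16 centred and 2.38 within GC bins, and was above 1 under each of the 8 other scalings, columns and pseudocounts tried. At 24 hr it was 0.91, 0.80 centred and 1.90 within GC bins, and its 6 hr value of -0.53 became 0.21 after centring.

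Ier3, also called IEX-1, is a known NF-κB target that acts on cell survival, and it is the gene with the κB letters shown above. It was at 2.58 RPKM untreated and at 13.0, 4.91 and 9.76 RPKM after 1.5, 6 and 24 hr, so each library with TNFα was above the untreated library. In time order its log2 ratios were 2.33 (interval 2.14 to 2.52), 0.93 (interval 0.71 to 1.16) and 1.92 (interval 1.73 to 2.12). These lay at the 97.7, 98.1 and 97.5 percentiles of all coding genes. The centred ratios were 1.88, 1.67 and 1.81, and within GC bins 2.25, 1.86 and 2.18. At each of the 3 times Ier3 had the highest percentile of the 10 genes. Ier5, a regulator of heat shock factor and cell division, was at 0.911, 1.83, 0.864 and 1.35 RPKM. Its log2 ratio of 1.00 at 1.5 hr stood at the 2-fold limit, with an interval of 0.79 to 1.22, and was 0.55 after centring.

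**Figure D3:**
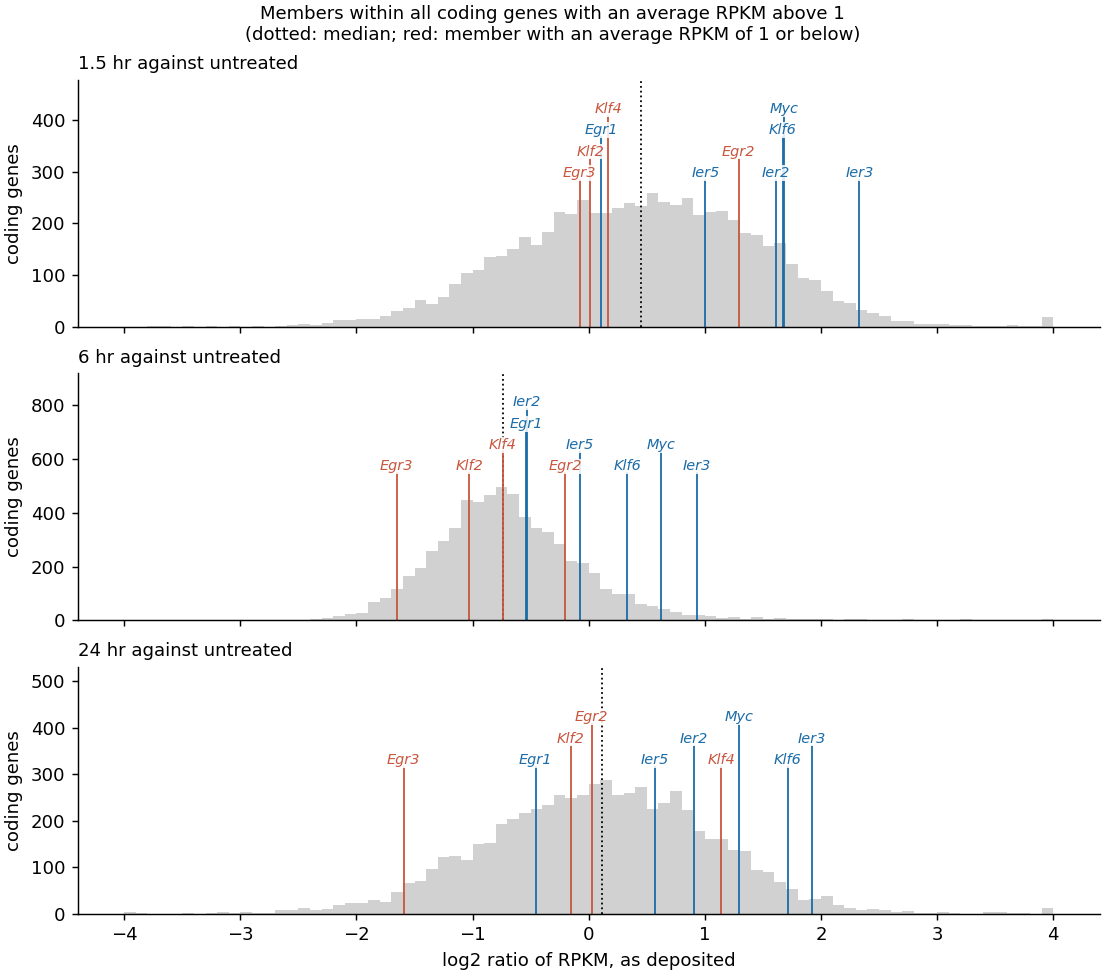
Number of coding genes (y axis) by log2 ratio of RPKM to the untreated library as deposited (x axis, values beyond 4 placed in the end bins) at 1.5, 6 and 24 hr, with the median dotted and the 10 genes marked, blue for those with an average RPKM above 1 and red for the others. Ier3, Klf6 and Myc lie to the right of the median of 0.45, -0.74 and 0.11 at the 3 times, and Egr3 to its left.

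The 3 Klf genes had different courses. Klf2, a factor of quiescent endothelium and T cells, was at 0.861, 0.870, 0.422 and 0.774 RPKM, low at 6 hr alone. Its log2 ratio at 6 hr was -1.03 (interval -1.47 to -0.58) but -0.29 after centring, the median of all coding genes in that library being -0.74. At 1.5 and 24 hr it was 0.01 and -0.15 as deposited and 0.79 and 0.84 within GC bins (GC content 61.6%). Klf4, a factor of epithelial differentiation and of pluripotency, was the one gene that was highest at 24 hr with no 2-fold difference earlier. It was at 0.759 RPKM untreated and at 0.854, 0.455 and 1.67 RPKM after 1.5, 6 and 24 hr. The log2 ratio at 24 hr was 1.14 (interval 0.91 to 1.38), 1.03 centred and 1.40 within GC bins, and from 6 to 24 hr Klf4 was 3.68-fold higher, where the median log2 ratio of all coding genes for that step was 0.97.

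Klf6, a widely expressed factor of the family, was at 1.80 RPKM untreated and at 5.73, 2.27 and 5.90 RPKM after 1.5, 6 and 24 hr. The 1.5 and 24 hr libraries were alike and above the other 2. The log2 ratios were 1.67 (interval 1.55 to 1.80), 0.33 (interval 0.18 to 0.49) and 1.71 (interval 1.59 to 1.84), and 1.22, 1.08 and 1.60 after centring. Klf6 had the lowest GC content of the 10 genes, 42.4%, and within GC bins its ratios were 0.25, 0.39 and 0.71, so against genes of like composition it did not reach 2-fold at any time. The part of base composition in the measured ratios of Klf6 and Ier2 was not tested further.

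Myc was at 1.55 RPKM untreated and at 4.97, 2.38 and 3.80 RPKM after 1.5, 6 and 24 hr, above the untreated library at each time. Its log2 ratios were 1.68 (interval 1.50 to 1.87), 0.62 (interval 0.41 to 0.83) and 1.30 (interval 1.11 to 1.48). Centred they were 1.23, 1.36 and 1.18, and within GC bins 1.24, 1.49 and 1.22, so Myc and Ier3 were the 2 genes at least 2-fold higher at all 3 times under both. At 6 hr Myc lay at the 96.8 percentile of coding genes.

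As deposited, the 6 hr value was below those at 1.5 and 24 hr in all 10 genes, and in 83.3% of coding genes. In Egr3 the 6 and 24 hr columns overlapped, and with the R2 column alone the count was 9. After centring, the 6 hr ratio was below both others in Ier2, Ier3 and Klf6, 3 of 10 against 50.7% of coding genes, and within GC bins in Egr3, Ier2, Ier3 and Klf2, 4 of 10 against 48.0%. Between 1.5 and 6 hr the median log2 ratio of all coding genes was -1.33. Against that, Ier2 had the lowest step of the 10 genes, -2.15 as deposited and -0.82 centred. Egr1 had the highest, -0.65 and 0.68.

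Distances were taken between the 3 log2 ratios as deposited. By these, the closest pair of the 10 genes was Klf6 and Myc, at 0.51, and the farthest was Egr3 and Ier3, at 4.98. Klf2 was closest to Egr1, at 0.58, and Ier5 to Egr2, at 0.63. Outside the 10 genes, those closest to Ier3 were Ube2d3 at 0.09, Snx7 at 0.10 and Yaf2 at 0.12, with log2 ratios at 1.5 hr between 2.23 and 2.31. Those closest to Myc were Tnip1 at 0.15, H2-Q7 at 0.17 and Angptl4 at 0.18. Those closest to Egr1 were Rrp12 at 0.08, Zbtb17 at 0.08 and Hyou1 at 0.10. Klf4 had no gene as near, with Gm13139 at 0.31, Tmem176a at 0.33 and Prrg2 at 0.37. These distances were taken over 3 ratios that share the untreated library, and they were not taken within GC bins. There the named pairs were less alike. Klf6 was at 0.25, 0.39 and 0.71 and Myc at 1.24, 1.49 and 1.22 in time order. Klf2 was at 0.79, -0.15 and 0.84 and Egr1 at -0.33, 0.33 and -0.53.

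The H3K4me3 mark, found at the starts of genes that are active or ready for transcription, was present over the start of all 10 genes in untreated MEFs. In each a peak reached to within 1 kb of where transcription is annotated to begin, as it did for 90.0% of coding genes with an average RPKM above 1 and 52.3% of all coding genes. Egr2, Egr3, Klf2 and Klf4 had this peak although their average RPKM was not above 1. The peaks were wide, with a median of 6551 bp against 3660 bp for 5425 peaks at the starts of coding genes with an average RPKM above 1. Myc had the widest, 8157 bp with 4119 tags at chr15:61814581-61822737, wider than 96.9% of those peaks. Klf6 followed at 7478 bp and 3414 tags, with the highest fold enrichment of the 10 genes, 128, and Ier2 at 7044 bp and 3847 tags. Klf2 had the narrowest, 3960 bp with 1494 tags, at the 58.8 percentile.

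Width and density did not go together in the Egr genes. The peaks of Egr1, Egr2 and Egr3 were 6486, 6627 and 6572 bp wide, at the 92.0, 92.8 and 92.6 percentiles. Egr1 had 0.523 tags per bp, at the 98.2 percentile, while Egr2 had 0.269 and Egr3 0.275, at the 18.3 and 20.0 percentiles. The summit of the Egr2 peak lay 1018 bp before its annotated start, and the summits of the other 9 genes lay 260 to 1386 bp after theirs. With 1 ChIP library and no treated sample, no change of the mark was measured.

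**Figure D4:**
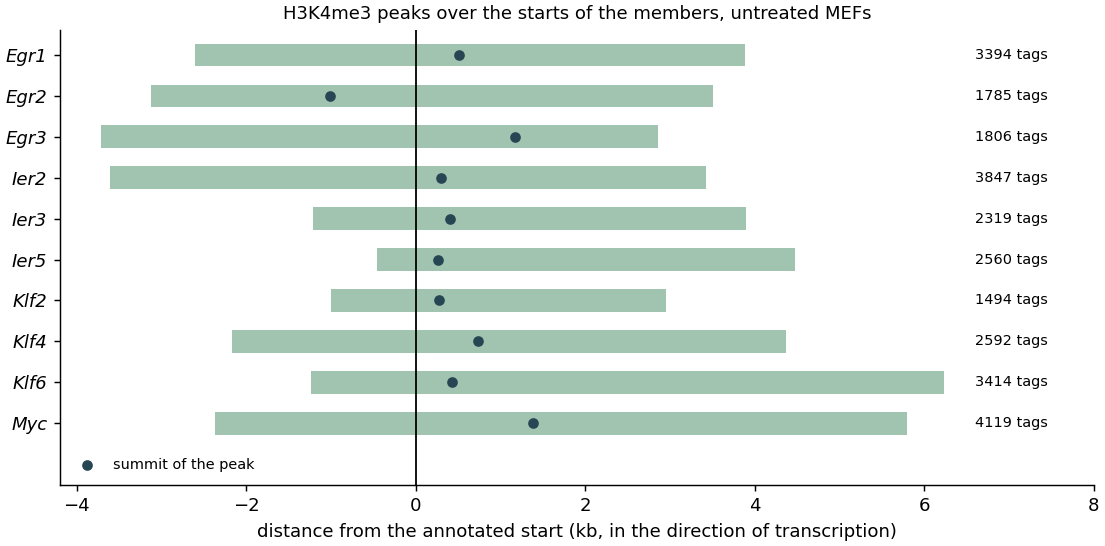
Extent of the H3K4me3 peak over each of the 10 genes in untreated MEFs, as distance from the annotated start in kb in the direction of transcription (x axis), with a dot at the summit and the tag count at the right. The peak of Klf6 reaches 6237 bp and that of Myc 5791 bp into the gene, and that of Egr2 is the only one with its summit before the start.

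Other immediate-early genes were followed as a list of 28, of which 18 had an average RPKM above 1. At 1.5 hr 12 of the 18 were at least 2-fold higher and 1 was lower, where 29.9% and 7.80% of all coding genes were, and the median log2 ratio was 1.38 against 0.45 for all. Of the 12, Maff and Klf10 were below 1 RPKM untreated and at 6 hr and passed the filter through their 1.5 and 24 hr values. After centring 8 of the 18 were higher and 2 lower, against 15.7% and 17.4% of all, and within GC bins 8 and 0, against 10.8% and 10.5%. The largest rise was in Junb, a subunit of AP-1, from 2.54 to 15.0 RPKM (log2 ratio 2.56, 2.11 centred), and the largest fall in the nuclear receptor Nr4a1, from 2.01 to 0.961 RPKM (log2 ratio -1.06, -1.52 centred). At 6 hr 0 were higher and 3 lower as deposited, against 1.74% and 31.6% of all coding genes, and 7 were higher and 1 lower after centring, against 7.16% and 3.15%. Ctgf, a matricellular protein gene and SRF target, stood highest at 0.94 (1.68 centred) and Jund lowest at -2.03 (-1.29 centred). At 24 hr 7 were higher and 1 lower, against 16.8% and 12.6%, and 6 and 1 after centring, against 14.1% and 15.1%. The highest was Junb at 2.16 (2.05 centred) and the lowest Jund at -1.37 (-1.48 centred). Within GC bins 7 of the 18 were higher and 1 lower at 6 hr, against 4.93% and 2.57%. At 24 hr they were 9 and 0, against 10.3% and 9.00%. Jund was at 0.00, -1.14 and -0.38 within GC bins.

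The Egr co-repressors and SRF with its partners, a list of 8 with 7 above 1 RPKM on average, held no gene at least 2-fold higher at any time as deposited or centred. Of all coding genes 29.9%, 1.74% and 16.8% were higher at 1.5, 6 and 24 hr as deposited, and 15.7%, 7.16% and 14.1% centred. The shares at least 2-fold lower were 7.80%, 31.6% and 12.6% as deposited, and 17.4%, 3.15% and 15.1% centred. Within GC bins Srf was at least 2-fold higher, at 1.17 at 1.5 hr and 1.30 at 24 hr, against 10.8% and 10.3% of coding genes. The co-activator Mkl1 was the lowest at each time, at -0.88, -1.23 and -0.97 (-1.33, -0.49 and -1.08 centred, -0.55, -0.29 and -0.35 within GC bins), and the highest as deposited were Elk4 at 1.5 hr (0.83), Elk3 at 6 hr (-0.09) and Srf at 24 hr (0.65). The list's median was 0.46, -0.66 and -0.02, beside 0.45, -0.74 and 0.11 for all coding genes, and Nab2, an Egr target, was at 0.18, -0.73 and -0.73 (-0.27, 0.02 and -0.84 centred).

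Of 14 other Klf genes 7 had an average RPKM above 1. Among all coding genes 29.9% and 16.8% were at least 2-fold higher at 1.5 and 24 hr as deposited, and 15.7% and 14.1% centred. At 6 hr 3 of the 7 were lower as deposited and 0 centred, against 31.6% and 3.15%. Klf10, a TGFβ-inducible member that is also in the list of other immediate-early genes, was the only one of the 7 at least 2-fold higher at 1.5 and 24 hr as deposited or centred. It went from 0.524 RPKM untreated to 2.03, 0.587 and 1.42 RPKM after 1.5, 6 and 24 hr, with log2 ratios of 1.95, 0.16 and 1.44 (1.50, 0.90 and 1.33 centred). Klf10 was below 1 RPKM untreated and at 6 hr and passed the filter through its 1.5 and 24 hr values. Within GC bins it did not reach 2-fold, at 0.93, 0.67 and 0.81, while Klf16 was higher at 1.5 hr (1.22), Klf5 was higher at 24 hr (1.10) and Klf7 was lower at 1.5 and 24 hr (-1.63 and -1.17). Of all coding genes 10.8% and 10.3% were higher within GC bins at 1.5 and 24 hr, and 10.5% and 9.00% lower. As deposited the lowest were Klf7 at 1.5 hr (-0.42, -0.87 centred), Klf9 at 6 hr (-1.40, -0.66 centred) and Klf13 at 24 hr (-0.78, -0.89 centred). The median of the 7 as deposited was 0.00, -0.93 and -0.08, below that of all coding genes at each time. Within GC bins it was -0.08, 0.00 and 0.17, so at 6 and 24 hr it was not below 0.

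The Myc network was given by 11 genes, 6 of them above 1 RPKM on average. Max, the partner of Myc, was the only one of the 6 at least 2-fold higher as deposited, with log2 ratios of 1.47 at 1.5 hr and 1.01 at 24 hr (1.01 and 0.90 centred, 0.64 and 0.55 within GC bins). Of all coding genes 29.9% and 16.8% were higher at these times as deposited, and 15.7% and 14.1% centred. Mnt, a repressor that competes for Max, was at -1.01, -1.02 and -1.21 (-1.47, -0.28 and -1.32 centred), and within GC bins it was short of 2-fold, at -0.59, -0.18 and -0.56. Mxd3 was lowest at 6 hr, at -1.26 (-0.52 centred). At 1.5, 6 and 24 hr 7.80%, 31.6% and 12.6% of all coding genes were at least 2-fold lower as deposited. Centred, these shares were 17.4%, 3.15% and 15.1%. Below the filter, and named after their values were seen, Mycl1 went from 0.116 RPKM untreated to 0.585, 0.346 and 0.891 RPKM, with log2 ratios of 2.33, 1.57 and 2.94 (1.88, 2.31 and 2.82 centred), and Mycn was at 0.0308 RPKM or below in each library. Of 16 textbook Myc targets, all above 1 RPKM on average, 7, 0 and 2 were at least 2-fold higher after 1.5, 6 and 24 hr, against 29.9%, 1.74% and 16.8% of all coding genes. Once centred, 2, 1 and 2 were, against 15.7%, 7.16% and 14.1%, so the centred counts were near the background. Within GC bins 3, 0 and 2 were higher, against 10.8%, 4.93% and 10.3%. There 1, 0 and 0 were lower, against 10.5%, 2.57% and 9.00%. As deposited 0, 1 and 0 were lower, against 7.80%, 31.6% and 12.6%. Ldha, lactate dehydrogenase A, had the largest rise at 1.5 and 24 hr, from 24.6 RPKM to 97.6 and 74.3, and Nop58, of the box C/D snoRNP, at 6 hr (0.92). The lowest values were in Nop56 at 1.5 hr (0.24), Srm at 6 hr (-1.03) and Cad at 24 hr (-0.14). The median of the 16 was 0.89, -0.29 and 0.51 as deposited and 0.44, 0.45 and 0.40 centred.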

How the data were processed

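The study measured poly(A) RNA in MEFs at 4 times of TNFα and H3K4me3 in untreated MEFs, with 1 library each. RNA-seq reads had been aligned by the authors to mm9 (TopHat), and a script of their own gave the deposited RPKM of each RefSeq transcript in 2 columns, R1 and R2, per library. The columns were matched to the times through the list of sequencing depths in the supplement. How R1 and R2 differ is not given in the sources used here. A protocol field of the 24 hr sample describes ChIP, while the rest of its labels describe RNA-seq. ChIP-seq reads had been aligned by Bowtie, and MACS was the authors' peak caller. Per the file headers, a peak has a tag count, a signal of tags per bp, a score from the log10 of its p-value, a fold enrichment over input as a ratio and an FDR in percent, all as deposited.

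The deposited RPKM values were divided by 85.7, the median ratio to the study's supplementary RPKM over 6312 values, so that the study's limit of 1 RPKM applies, and R1 and R2 were averaged. No pseudocount was used. A coding gene was called at 2-fold or more with an average RPKM above 1, and 6537 passed that filter. Medians and counts were taken over it, with no test. Starts, lengths and GC content came from the longest GENCODE vM1 coding transcript (build NCBIM37, the same as mm9), which 98.1% of the 6537 genes had. The value of 1 read was taken from low rows of genes with a single transcript, and not from the mapped reads. Reads are therefore approximate and may be too many, and intervals at 95% cover counting error only and may be too narrow. Columns were said to hold equal reads where their ratio lay within 0.0001 of its mode. Percentiles are the share of coding genes, or of peaks, with a lower value. The genes named were the 10 members, the largest rise and fall of each related list at each time (Nab2, Mycl1, Mycn and the genes named for GC bins alone, Klf5 and Klf16, were added after their values were seen), and for Egr1, Ier3, Klf4 and Myc the 3 genes nearest by Euclidean distance over their log2 ratios. The members and lists were chosen with earlier results of these data known. Scripts ran in Python 3.11.15 with numpy 2.4.6, pandas 2.3.3 and scipy 1.17.1, and were tested on simulated data.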

Additional observations from a re-analysis of the deposited data

How the results depend on the processing

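The median log2 ratio of the genes with an average RPKM above 1 was 1.64, 0.13 and 1.10 at 1.5, 6 and 24 hr. It became 1.19, 0.87 and 0.99 when centred on all coding genes, 1.39, 0.96 and 1.15 when scaled to the sum of the values, and 0.87, 0.58 and 0.97 within 20 bins of GC content. With no filter it was 1.15, -0.37 and 0.74, and above 5 RPKM, where Ier3 alone is left, 2.33, 0.93 and 1.92. A pseudocount of 1 RPKM gave 1.24 and 0.79 at 1.5 and 24 hr, and one of 0.1 RPKM gave 1.59 and 1.06. Genes at least 2-fold higher at 1.5 hr numbered 5, and 3 within GC bins. At 6 hr they numbered 0, and 3 when centred, 3 when scaled to the sum, 2 within GC bins and 2 at a 1.5-fold limit. Above 5 RPKM 1 gene was higher at 1.5 hr and 1 at 24 hr. With no filter 2 genes were lower at 6 hr and 1 at 24 hr. The dip at 6 hr was in 10 genes, in 3 when centred or scaled to the sum and in 4 within GC bins. The H3K4me3 peak count was within 1.5 times of 10 under each alternative. Of 240 values of single genes under an alternative, 102 moved no further than about what taking R1 or R2 alone did. The other 138 moved further. The 240 include the R1 column alone, the R2 column alone and the mean over rows, which by construction could hardly move further. Most of the 102 were of these kinds, so the 102 are no measure of how stable the ratios were to scaling or pseudocount. No called value changed sign. Why the ratios follow GC content was not tested. No replicate could be left out, and no paired analysis was possible because each time had 1 library. At about 15 to 52 reads, Egr3 is limited by depth. These reads rest on an annotated transcript of 1416 bp that begins at its coding sequence, and whether the RefSeq transcript is longer was not checked.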
